A study of Mus musculus with 25 samples.

Results

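The elastic fibre and microfibril genes described here are 10 genes taken by symbol from the deposited gene table: Eln, Fbn1, Fbn2, Ltbp1, Ltbp2, Ltbp3, Ltbp4, Fbln5, Mfap4 and Mfap5. They are 10 of the 55487 genes in the table, and all 10 were among the 19155 genes that passed the filter on low counts. The 25 libraries are total RNA of Achilles tendon, taken at an age of 3 months. Wild-type (WT) mice and AMPKcKO mice (cKO below) had either normal cage activity or a running wheel. In the cKO a conditional deletion targets AMPKα1, per the title of the series, and Prkaa1 is the gene for this subunit of AMPK, a kinase that senses cellular energy. The Cre driver and the cells it acts in are not given in the sources used here. There were 7 WT cage libraries (4 female, 3 male) and 6 libraries (3 female, 3 male) in each of the other groups: WT runners, cKO at cage activity, and cKO runners.

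Elastic fibres give a tissue reversible stretch. A scaffold of fibrillin microfibrils is laid down outside the cell, tropoelastin is deposited on it with the help of fibulins, and lysyl oxidases cross-link the elastin. Latent TGF-β binding proteins (LTBPs) sit on the same microfibrils, where several of them hold TGF-β in a latent complex. In tendon, elastin is a minor component beside collagen and is found mainly around cells and between fascicles.

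Of the 10 members, Ltbp2 was higher in runners and Ltbp4 was lower in males, and no member passed the test for genotype. Ltbp2 rose 2.26-fold with running as the mean of both genotypes. Ltbp4 stood at 0.723 of the female level in males. Calls were made with edgeR's quasi-likelihood test at an adjusted p under 0.05 over all genes tested.

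The sequences upstream of Ltbp2 and Ltbp4 are shown because these are the members that passed a test. RefSeq promoter windows of GRCm38.p6, from 250 bases before to 50 bases after a start, were found for 6 members (Fbn1, Ltbp1, Ltbp2, Ltbp3, Ltbp4 and Fbln5). Eln, Fbn2, Mfap4 and Mfap5 were not matched. The Ltbp2 stretch is chr12:84876533-84876741 and the Ltbp4 stretch is chr7:27337693-27337862, both on the minus strand, written 5′ to 3′ and ending before the annotated gene start. Capitals mark matches to a GC box (letters GGGCGG) on either strand. In Ltbp4 they also mark the CCAAT box, whose name gives its letters.
Ltbp2: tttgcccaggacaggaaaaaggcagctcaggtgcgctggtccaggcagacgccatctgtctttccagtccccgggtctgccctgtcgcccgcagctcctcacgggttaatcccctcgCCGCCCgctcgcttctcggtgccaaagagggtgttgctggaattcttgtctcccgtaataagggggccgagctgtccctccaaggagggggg
Ltbp4: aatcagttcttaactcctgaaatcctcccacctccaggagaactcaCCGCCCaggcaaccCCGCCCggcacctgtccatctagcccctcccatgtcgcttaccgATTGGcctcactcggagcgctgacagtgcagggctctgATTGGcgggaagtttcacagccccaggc
The Ltbp2 stretch holds 1 GC box match, and the Ltbp4 stretch holds 2 GC box and 2 CCAAT box matches, all in the reverse orientation. Ltbp4 has 2 further RefSeq starts, whose 300-base windows hold 7 and 9 GC box matches and 0 CCAAT box matches. These 2 windows (chr7:27333599-27333898 and chr7:27333614-27333913) overlap, and the 7 matches are among the 9. The printed stretches are shorter than the 300-base windows used for the shares that follow. Of all 32851 such windows, 35.7% hold a GC box match and 37.4% a CCAAT box match. TGANTCA (AP-1) was matched in the Ltbp3 window, and in 7.81% of all windows. The TATA motif, with the letters TATAAA, was matched in none of the windows of the 6 members and in 13.6% of all windows. The TEAD motif, with the letters GGAATG, was also matched in none of them and in 14.7% of all windows. The 5 motifs do not contain one another. Such matches describe the letters and do not show binding.

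Library properties that touch the members are as follows. Totals ran from 13193228 to 45724243 counts. Prkaa1 was counted at 13.4 to 31.2 CPM (counts scaled to the library total) in WT cage libraries, 15.6 to 31.1 in WT runners, 13.9 to 21.2 in cKO cage libraries and 16.2 to 22.6 in cKO runners, and its genotype difference across activities did not pass the test (log2 fold change -0.36 ± 0.12 SE, edgeR adjusted p = 0.981). The deleted exons are not given in the sources used here, so the level of the whole gene does not check the labels. Cre was counted in 11 of 12 cKO libraries and in no WT library. The exception was cKO cage female replicate 3. eGFP exceeded 10 CPM in 6 of 6 cKO runners, 2 of 6 cKO cage libraries, 1 of 6 WT runners (male replicate 2) and 0 of 7 WT cage libraries. The 2 mitochondrial ribosomal RNAs took a median of 25.2% of counts at cage activity and 19.4% in runners. Tendon markers were present in every group: the 10 tenocyte genes summed to between 4676 and 27192 CPM, and none of them was at 0 throughout. Muscle genes took 1.5% to 7.01% of counts, so the samples hold muscle RNA. WT running female replicate 2 and male replicate 3 were treated as standing apart from the other libraries, by a measure not reported here. In bulk tissue, fewer cells of a type and less RNA per cell cannot be told apart.

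Per transcript length, Fbn1 and Ltbp4 were the most abundant members and Fbn2 the least. Fbn1, the main fibrillin of adult microfibrils, had 70.1 ± 25.9 FPKM (fragments scaled by transcript length and library size; mean ± SD, n = 25). Ltbp4, which binds microfibrils and takes part in elastin assembly, had 64.8 ± 23.6 FPKM, and Fbn1 lay above it in 17 of 25 libraries. Their difference was within the spread of either gene. Ltbp3, a carrier of latent TGF-β, followed with 46.7 ± 16.9 FPKM, and lay below Ltbp4 in 24 of 25 libraries. Mfap5, a small microfibril-associated glycoprotein, had 18.6 ± 8.17 FPKM. Eln, which encodes tropoelastin, had 13.1 ± 8.22 FPKM, Fbln5, the fibulin that guides tropoelastin onto microfibrils, 11.6 ± 4.47, and Ltbp1, another carrier of latent TGF-β, 10.9 ± 3.85. These 3 levels overlapped widely, with Eln above Fbln5 in 14 libraries and Fbln5 above Ltbp1 in 14. Mfap4, a fibrinogen-like microfibril protein, had 9.09 ± 3.83 FPKM and lay above Ltbp2 in 25 of 25 libraries. Ltbp2, an LTBP that binds microfibrils but no latent TGF-β, had 3.41 ± 2.3 FPKM, and Fbn2, the fibrillin known mainly from embryonic tissue, 0.908 ± 0.578.

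**Figure D1:**
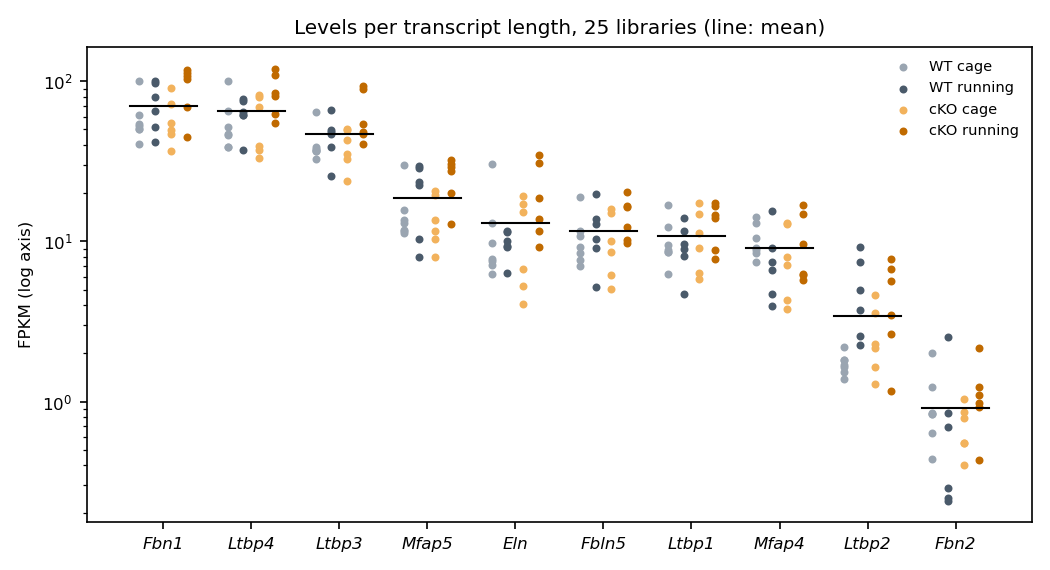
FPKM of each member in every library (log axis), coloured by group, with a line at the mean of the 25 libraries. The order runs from Fbn1 at 70.1 FPKM to Fbn2 at 0.908 FPKM, and neighbouring genes such as Eln, Fbln5 and Ltbp1 overlap.

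The question of the running comparison is how the tendon's transcripts differ after wheel running, and among the members the difference was clearest for Ltbp2 (chromosome 12, 84783212 to 84876532, minus strand, GRCm38; a gene of up to 36 exons). Ltbp2 was counted at 117 to 1397 reads per library. In WT cage tendons its level was 7.51 to 15.6 CPM with a median of 9.24, and in WT runners 14.4 to 55.0 with a median of 30.5. In cKO cage tendons it was 9.52 to 19.9 CPM with a median of 13.4, and in cKO runners 6.72 to 38.3 with a median of 24.6. Of 12 runners, 8 lay above the highest of the 13 cage libraries. In WT, 5 of 6 runners were above every WT cage library, and in cKO 4 of 6 were above every cKO cage library. Such counts, here and for other members, describe the libraries that the tests used and are no further support. The share of all genes that separate as far is not given here. The exception at the low end was cKO running male replicate 3, which at 6.72 CPM was the lowest of all 25 libraries.

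As the mean of both genotypes, the log2 fold change of Ltbp2 with running was 1.18 ± 0.22 (SE; 12 against 13 libraries, edgeR adjusted p = 0.00616). It was 1 of 10 members called, where 1.43% of all tested genes were. In WT alone it was 1.58 ± 0.31, a 2.98-fold rise (6 against 7, edgeR adjusted p = 0.0261), again as 1 of 10 members, where 0.131% of all tested genes were called. In cKO alone the value was 0.78 ± 0.32 (6 against 6, edgeR adjusted p = 0.283), and 0 of 10 members were called where 0.0418% of all genes were. At an unadjusted p under 0.05 there were 5 of 10 members in cKO, beside 2596 of all 19155 genes tested, and DESeq2 and limma-voom called 0 members. The Ltbp2 response did not differ detectably between genotypes (interaction -0.80 ± 0.44 on the log2 scale, edgeR adjusted p = 0.672). All these comparisons draw on the same 4 groups, so they are not independent of one another.

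Leaving out any 1 of the 25 libraries kept the Ltbp2 call for both genotypes, at 1.04 to 1.28. The value was positive under all 43 alternatives, from 0.79 to 1.38, and the call held under 37 of them. It was lost with log2(FPKM + 1) (0.79, limma adjusted p = 0.0853) and log2(FPKM + 0.1) (1.01, limma adjusted p = 0.0899), and with fewer libraries in females alone (1.38, edgeR adjusted p = 0.121) and males alone (0.93, edgeR adjusted p = 0.130). It was also lost with a covariate for eGFP (1.18, edgeR adjusted p = 0.136) or for the mitochondrial ribosomal RNAs (0.89, edgeR adjusted p = 0.122). cKO running male replicates 1 and 3, with the lowest Ltbp2 among cKO runners, had the highest mitochondrial rRNA shares among all runners, 28.6% and 28.7%. Among WT runners, female replicate 2 had both the lowest Ltbp2 (14.4 CPM) and the lowest share (17.8%). What part the rRNA share has in the Ltbp2 result was not tested. The WT call alone was less stable. It was lost without WT cage female replicates 1, 2, 3 or 4, WT cage male replicates 2 or 3, WT running female replicate 1, or WT running male replicates 2 or 3, each at an edgeR adjusted p between 0.0540 and 0.0870, with log2 values between 1.29 and 1.62. It was also lost without both libraries that stood apart (1.69, edgeR adjusted p = 0.0542). Further losses were in both FPKM fits, with a replicate block or the mitochondrial rRNA covariate, in either sex alone, and in other subsets given in the closing section. The WT call held under 26 of 44 alternatives, with a positive value in all, from 1.04 to 1.73.

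**Figure D2:**
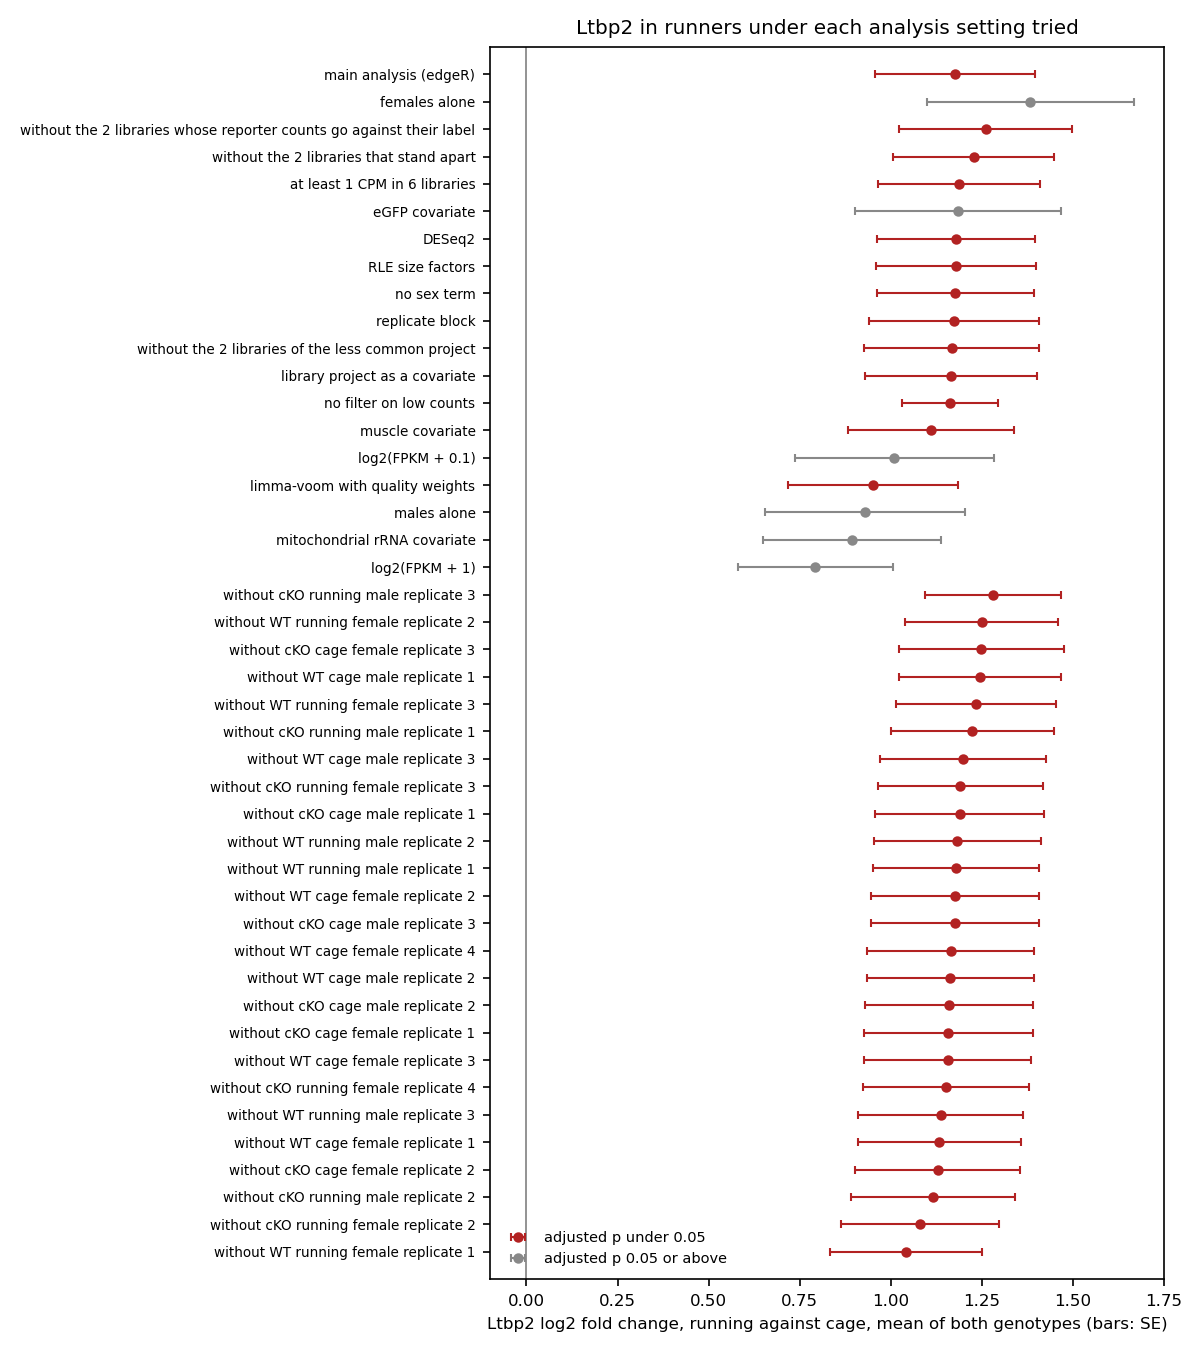
Log2 fold change of Ltbp2 with running, mean of both genotypes, with SE bars, in the main analysis, under the other alternatives and with each library left out. Every value lies above 0, between 0.79 and 1.38, and grey points are settings in which the adjusted p was 0.05 or above.

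Several cell-type marker lists moved beside Ltbp2 in runners. Of 10 genes for sheath and progenitor fibroblasts, 9 had positive running values (median 0.38) and 2 were called, Pi16 (0.81 ± 0.18, edgeR adjusted p = 0.0233) and Tspan15 (0.51 ± 0.12, edgeR adjusted p = 0.0328). Over all genes tested, 1.43% were called and 52.2% had positive values. The summed level of this list was 629 to 2333 CPM at cage activity and 812 to 4823 CPM in runners. All 6 macrophage markers (median 0.52) and all 6 Schwann cell markers (median 0.84) were positive, and 9 of 10 tenocyte markers were negative (median -0.24), with none called in those lists. Also positive were all 4 mast cell markers (median 0.60), 7 of 8 mural and smooth muscle markers (0.15) and 4 of 5 adipocyte markers (0.09). Negative were 5 of 6 endothelial markers (-0.11), 8 of 10 fast muscle fibre markers (-0.11) and 3 of 4 markers of chondrocytes and fibrocartilage (-0.08). Slow muscle fibre markers were split, with 3 positive and 3 negative (-0.03), and none of these was called. The macrophage sum was 80.5 to 373 CPM at cage activity and 86.1 to 442 in runners, and the Schwann cell sum 7.34 to 280 and 20.4 to 1034. No marker in these lists was at 0 in every library. Their part in the Ltbp2 result was not tested.

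The other 9 members did not pass the test for running, though 6 of them had positive values over both genotypes. Mfap5 (chromosome 6, 122505845 to 122529290, plus strand) came closest. Its level was 13.8 to 26.6 CPM with a median of 16.0 in the 13 cage libraries and 14.1 to 36.9 with a median of 25.8 in the 12 runners, and 6 runners lay above the highest cage library. Its log2 fold change was 0.47 ± 0.13 (edgeR adjusted p = 0.0714). Mfap5 passed with DESeq2 (adjusted p = 0.0242) and limma-voom (adjusted p = 0.0414), and in edgeR without the filter on low counts (adjusted p = 0.00779). It also passed without WT cage female replicate 1 (adjusted p = 0.0363), WT running female replicate 3 (0.0178), WT running male replicate 1 (0.0400) or cKO running male replicate 1 (0.0409), all by edgeR. In all, Mfap5 passed under 7 of 43 alternatives.

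Among the scaffold genes, Fbn1 (chromosome 2, 125300594 to 125507993, minus strand) stood at 410 to 844 CPM with a median of 524 in cage libraries and 434 to 1145 with a median of 741 in runners. Its groups overlapped, and its log2 fold change of 0.35 ± 0.13 missed the threshold (edgeR adjusted p = 0.190). Fbn2 (chromosome 18, 58008623 to 58210487, minus strand) was scarce, with 52 to 379 reads per library. Its values were 2.66 to 14.6 CPM in cage libraries and 2.89 to 11.3 in runners, and its log2 fold change was -0.25 ± 0.21 (edgeR adjusted p = 0.626). In WT alone the Fbn2 value was -0.73 ± 0.30 (edgeR adjusted p = 0.411), with every WT runner inside the range of the WT cage group.

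The LTBPs other than Ltbp2 showed small differences. Ltbp4 had a log2 fold change of 0.26 ± 0.09 with running (edgeR adjusted p = 0.178; limma-voom adjusted p = 0.0468), Ltbp3 of 0.19 ± 0.09 (edgeR adjusted p = 0.289) and Ltbp1 of -0.03 ± 0.12 (edgeR adjusted p = 0.931). For Ltbp4, limma-voom was the 1 of 43 alternatives that called it. Ltbp1 was positive in both FPKM fits and in the limma-voom fit. Ltbp3 (chromosome 19, 5740904 to 5758532, plus strand) ranged from 86.4 to 134 CPM in cage libraries and from 98.5 to 157 in runners. Ltbp1 (chromosome 17, 75005568 to 75392512, plus strand) ranged from 33.3 to 76.0 and from 31.5 to 71.1. The assembly genes were likewise within the spread: Fbln5 (chromosome 12, 101746565 to 101819055, minus strand) at 0.19 ± 0.12 (edgeR adjusted p = 0.480), Mfap4 (chromosome 11, 61485431 to 61488900, plus strand) at -0.26 ± 0.19 (edgeR adjusted p = 0.562), and Eln (chromosome 5, 134702593 to 134747323, minus strand) at 0.28 ± 0.20 (edgeR adjusted p = 0.551). The Eln value was -0.25 ± 0.25 in females alone (edgeR adjusted p = 0.875) and 0.85 ± 0.19 in males alone (edgeR adjusted p = 0.0710).

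Over the 10 members the median log2 fold change with running was 0.23, with 7 positive, beside a median of 0.01 and 52.2% positive over all genes tested. On the FPKM scale the median of all genes itself moved to 0.11 (with 1 added) or 0.15 (with 0.1 added), and Ltbp1 changed sign in both, Fbn2 with 1 added. In cKO all 10 values were positive (median 0.32, beside 0.03 over all genes), and 7 of 10 kept their sign under every alternative. Mfap4 was the lowest of these at 0.04 ± 0.27. It turned negative in 6 alternatives listed in the closing section, and without cKO cage female replicate 1, cKO cage male replicates 2 or 3, cKO running female replicate 4 or cKO running male replicate 2.

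**Figure D3:**
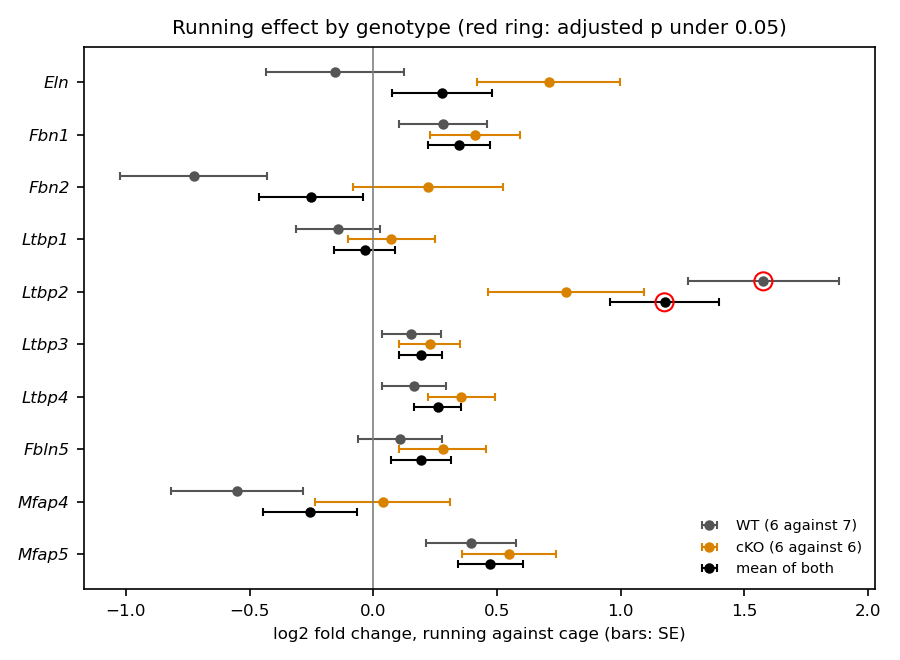
Log2 fold change of each member with running, with SE bars, for WT (grey), cKO (orange) and their mean (black). A red ring marks an adjusted p under 0.05, which Ltbp2 reached in WT (1.58) and for the mean (1.18) and no other member reached.

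The question of the genotype comparison is how tendons labelled AMPKcKO differ from WT, with and without running. At cage activity, 0 of 10 members were called, where 0% of all genes were (0 of 19155; 217 genes but 0 members had an unadjusted p under 0.05, and DESeq2 and limma-voom called 0 genes). The largest values were 0.43 ± 0.31 for Ltbp2 and -0.34 ± 0.26 for Mfap4 (edgeR adjusted p = 1.000 for both). In runners 0 of 10 members were called as well, where 0% of all genes were (2173 genes and 2 members at an unadjusted p under 0.05, 0 genes by DESeq2 and by limma-voom). For the mean of both activities 0 of 10 were called, where 0.00522% of all genes were. At an unadjusted p under 0.05 there were 724 genes and 1 member, and DESeq2 and limma-voom called 0 members. The genotype-by-running interaction called 0 of 10, where 0% of all genes were (1377 genes and 2 members at an unadjusted p under 0.05, 0 genes by DESeq2 and limma-voom).

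Eln had the largest genotype value. In WT runners it was 24.2 to 36.5 CPM with a median of 30.9, and in cKO runners 29.0 to 80.1 with a median of 54.7. Of 6 cKO runners, 4 lay above every WT runner, while cKO running male replicate 3 and female replicate 2 lay inside the WT range. The log2 fold change was 0.86 ± 0.29 in runners (edgeR adjusted p = 0.387). Eln passed here under 1 of 43 alternatives, without the filter on low counts (0.88 ± 0.18, edgeR adjusted p = 0.00191). That fit called 181 genes higher and 101 lower in this comparison, against 0 in the main fit. DESeq2 (adjusted p = 0.206) and limma-voom (adjusted p = 0.209) did not call Eln. Averaged over activities the Eln value was 0.43 ± 0.20 (edgeR adjusted p = 0.981). These values share the cKO running group with those that follow.

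With running, Eln had 0.71 ± 0.29 in cKO (edgeR adjusted p = 0.284). It passed under 1 of 43 alternatives, without the filter on low counts (0.70 ± 0.18, edgeR adjusted p = 0.0192). That fit called 248 genes higher and 326 lower in this comparison, against 6 and 2 in the main fit. DESeq2 (adjusted p = 0.168) and limma-voom (adjusted p = 0.212) did not call Eln. The 3 cKO males at cage activity had 19.8, 20.2 and 23.0 CPM and the 3 running males 29.0, 61.9 and 80.1, without overlap. The 3 cKO females at cage activity had 49.5, 52.2 and 60.1 CPM and the 3 running females 35.8, 47.5 and 79.8, which overlap. Fitted in males alone the value was 1.44 (edgeR adjusted p = 0.0569), and in females alone 0.02 (edgeR adjusted p = 1.000). The difference between the sexes was not tested. With a covariate for muscle genes the value in cKO was 0.34 (edgeR adjusted p = 0.811). The genotype-by-running interaction of Eln was 0.86 ± 0.40 (edgeR adjusted p = 0.672), with 0.45 to 1.19 over the alternatives.

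Marker lists differed between cKO and WT runners, in both directions. All 8 mural and smooth muscle markers, of cells that make elastin in vessel walls, had higher values in cKO than in WT runners (median log2 fold change 0.98), with a summed level of 414 to 639 CPM in WT runners and 512 to 1411 in cKO runners. All 6 Schwann cell markers (median 1.5) and all 4 mast cell markers (median 1.24) were higher too, and all 10 fast muscle fibre markers were lower (median -0.74). Higher as well were all 6 endothelial markers (median 0.20), all 5 adipocyte markers (0.36) and 5 of 6 macrophage markers (0.21). Of 10 sheath and progenitor markers 7 were higher (0.18), and of 10 tenocyte markers 6 were lower (-0.03). All 6 slow muscle fibre markers (median -0.54) and 3 of 4 markers of chondrocytes and fibrocartilage (-0.23) were lower. None of these genes was called, and their part in the Eln values was not tested. With a covariate for muscle genes the Eln value in runners was 0.52 (edgeR adjusted p = 0.582).

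None of the other members was called between genotypes in runners, where their values ran from -0.37 to 0.62. Fbn2 had 0.62 ± 0.31 (edgeR adjusted p = 0.444), with 0.08 to 1.14 over the alternatives. Ltbp4 had 0.28 ± 0.13 (edgeR adjusted p = 0.437) and Ltbp2 -0.37 ± 0.31 (edgeR adjusted p = 0.626). Fbn2 had the largest interaction, 0.95 ± 0.43 (edgeR adjusted p = 0.672). It stood at 2.89 to 8.66 CPM in WT runners and 4.54 to 11.3 in cKO runners, ranges that overlap. Over the 10 members the median genotype value in runners was 0.23 with 9 positive, beside 0.01 and 51.3% positive over all genes. On the FPKM scale the median of all genes moved to 0.12 or 0.19 for the same comparison.

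**Figure D4:**
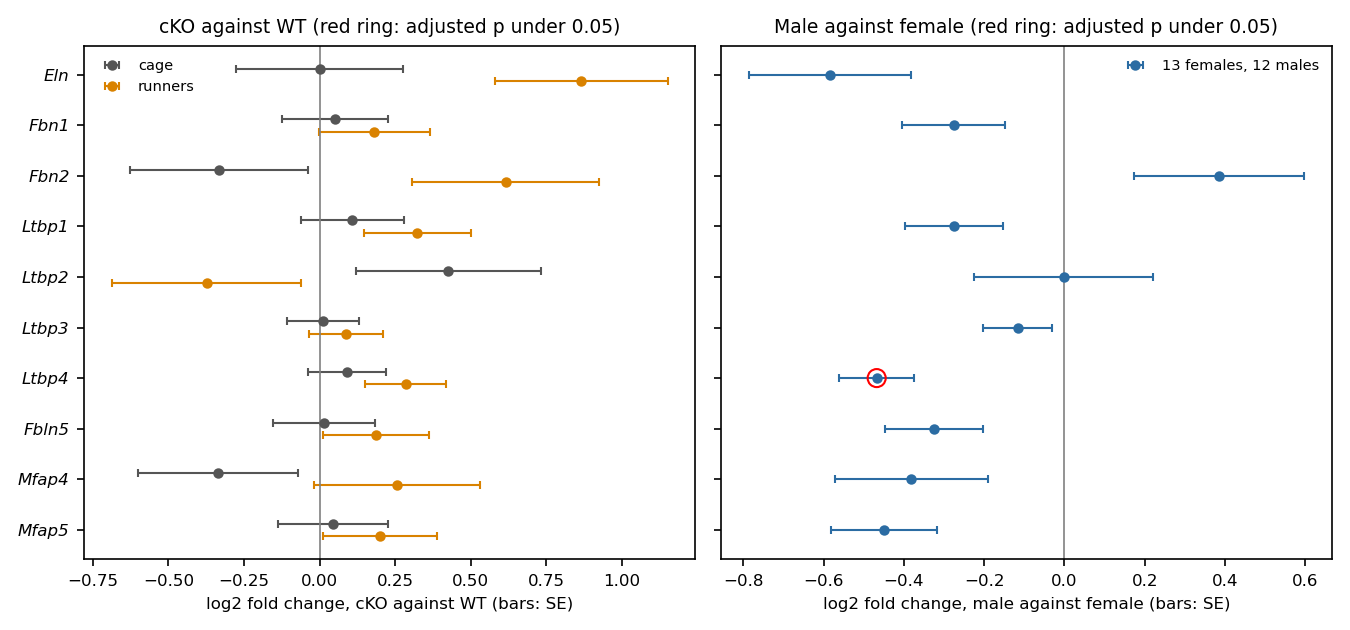
Log2 fold change of each member, with SE bars, for cKO against WT at cage activity and in runners (left) and for male against female (right). The left panel has no red ring (adjusted p under 0.05), and the right panel has 1, at Ltbp4 (-0.47).

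Sex was balanced across the groups except for 1 more WT cage female, and the fit estimates it over all 4 groups. Ltbp4 (chromosome 7, 27305136 to 27337692, minus strand; up to 33 exons) was lower in males. It was 200 to 433 CPM with a median of 332 in 13 females and 190 to 337 with a median of 226 in 12 males. In cKO cage tendons the 3 females were at 312, 346 and 365 CPM and the 3 males at 190, 206 and 207. In WT runners the females were at 295, 306 and 332 CPM and the males at 223, 229 and 285, and in cKO runners the females were at 347, 394 and 433 and the males at 241, 293 and 337. In these 3 groups the sexes did not overlap. These are the libraries that the sex test used, with 3 of each sex in these groups, so the separation is no further support. The share of all genes that separate in this way is not given here. In WT cage tendons they did, since female replicate 3 at 200 CPM lay below the males at 205, 219 and 234.

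The log2 fold change of Ltbp4 for male against female was -0.47 ± 0.09 (13 females, 12 males, edgeR adjusted p = 0.0104). It was 1 of 10 members called, where 0.616% of all tested genes were. The call held with each of the 25 libraries left out, at values from -0.50 to -0.43, and under 38 of 41 alternatives, with a negative value in all 41. It was lost on the FPKM scale (limma adjusted p = 0.216 and 0.210 with 1 and 0.1 added, at -0.52 and -0.53) and without the libraries with eGFP, which left 16 (-0.52, edgeR adjusted p = 0.186).

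Most other members also had lower values in males without passing edgeR's test. Eln had -0.58 ± 0.20 (edgeR adjusted p = 0.279), Mfap5 -0.45 ± 0.13 (0.159), Fbln5 -0.32 ± 0.12 (0.330), Fbn1 -0.28 ± 0.13 (0.463) and Ltbp1 -0.28 ± 0.12 (0.440), all edgeR adjusted p. Of 41 alternatives, 2 called Eln, 2 called Mfap5 and 1 called Fbln5. limma-voom called Eln (-0.65, adjusted p = 0.0313) and Fbln5 (-0.37, adjusted p = 0.0465). Without the filter on low counts edgeR called Eln (-0.59, adjusted p = 0.00174) and Mfap5 (-0.45, adjusted p = 0.0124), and Mfap5 also passed without WT running female replicate 3 (-0.52, edgeR adjusted p = 0.0289). In cKO cage tendons the Eln levels of the sexes did not overlap, with females at 49.5, 52.2 and 60.1 CPM and males at 19.8, 20.2 and 23.0. In cKO runners they did, with females at 35.8 to 79.8 CPM and males at 29.0 to 80.1. Fbn2 was the 1 member with a positive value, 0.39 ± 0.21 (edgeR adjusted p = 0.582). Over the 10 members the median was -0.30 with 9 negative, beside a median of -0.003 and 49.4% positive over all genes, and 9 of 10 members kept a single sign across the 41 alternatives.

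Marker lists also differed with sex, in both directions. Of 10 fast muscle fibre markers 9 were higher in males (median 0.44), and all 6 slow muscle fibre markers were lower (median -0.40). Of 8 mural and smooth muscle markers 5 were lower and 3 higher (median -0.38), and none was called in these 3 lists. All 6 Schwann cell markers (median -1.14), all 4 mast cell markers (median -0.87) and all 6 macrophage markers (median -0.32) were lower in males, as were 9 of 10 sheath and progenitor markers (median -0.15), with none called. The Schwann cell sum was 20.4 to 1034 CPM in females and 7.34 to 252 in males. The mitochondrial rRNA share had a median of 20.7% in females and 25.5% in males. With that share as a covariate the Ltbp4 value was -0.42 (edgeR adjusted p = 0.0466). The part of the marker lists in the Ltbp4 result was not tested.

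**Figure D5:**
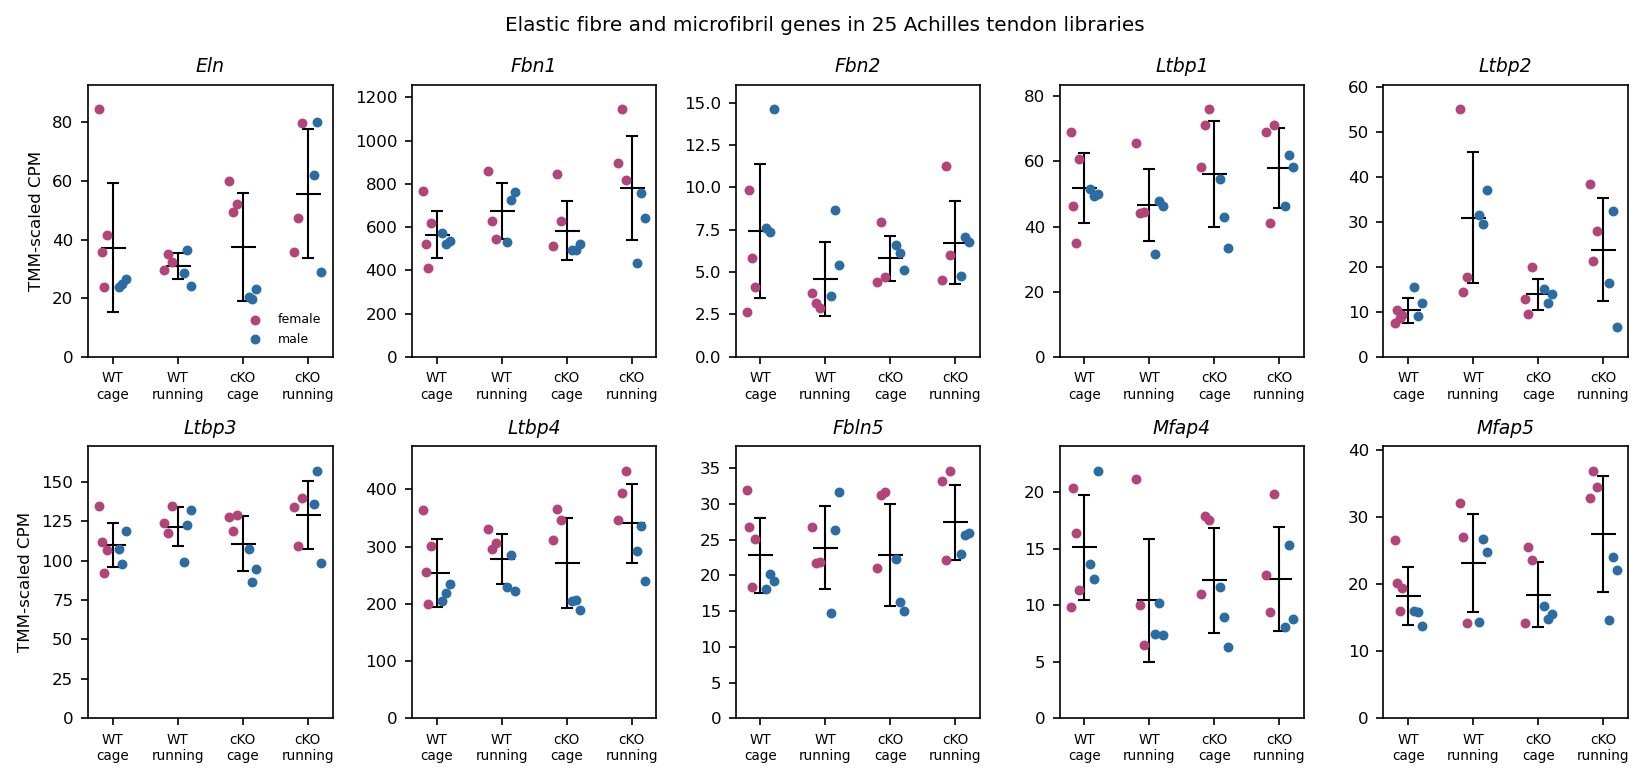
CPM of each member in the 25 libraries by group, females and males in different colours, with the mean and SD of each group. Ltbp2 is higher in most runners (8 of 12 above every cage library), and Ltbp4 is lower in males than in females in 3 of 4 groups without overlap. These are the values that the tests used, and the share of all genes that separate as far is not given here.

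A list of 75 symbols for other genes of the pathway, of which 73 were in the table and 70 passed the filter, gives the surroundings of these members. The symbols not in the table, Kdelc1 and Kdelc2, are former names of Poglut2 and Poglut3, which are listed and in the table. With running as the mean of both genotypes, 3 of the 70 rose and 0 fell, where 1.43% of all tested genes were called. Vcan, a large proteoglycan that binds fibrillin microfibrils, rose by 0.67 ± 0.17 on the log2 scale (edgeR adjusted p = 0.0498), from 95.2 ± 31.8 CPM (SD, n = 13) to 153 ± 57.3 CPM (n = 12). Emilin2, of a family of elastin-associated glycoproteins, rose by 0.50 ± 0.13 (edgeR adjusted p = 0.0489), from 31.5 ± 9.40 to 44.5 ± 9.65 CPM. Furin, the convertase that trims profibrillin, rose by 0.24 ± 0.06 (edgeR adjusted p = 0.0469), from 51.0 ± 4.62 to 60.4 ± 5.62 CPM. These calls were near the threshold, and they held under 12, 13 and 10 of 43 alternatives for Vcan, Emilin2 and Furin. In the other 7 comparisons edgeR called 0 of the 70 genes, with 0 (genotype at cage activity) to 14 (running in cKO) at an unadjusted p under 0.05. Over all 19155 genes tested, 217 had such a p for genotype at cage activity and 2596 for running in cKO. DESeq2 called 1 for running in WT and 3 for sex, limma-voom 3 for sex, and neither called any in the rest.

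By function, 18 of 23 partners of microfibrils and elastic fibres had positive running values (median 0.09), 2 of them called. Loxl1, the lysyl oxidase tied to elastic fibre upkeep, had 0.42 ± 0.12 (edgeR adjusted p = 0.0919), and Loxl4 -0.28 ± 0.16 (edgeR adjusted p = 0.410). Both are among 5 lysyl oxidases, of which edgeR called 0 (1 at an unadjusted p under 0.05), and DESeq2 and limma-voom 1 each. Of all 19155 genes tested, 2849 had an unadjusted p under 0.05 for running as the mean of both genotypes. TGF-β ligands and latency partners were positive in 4 of 5, led by Tgfb1 at 0.26 ± 0.12 (edgeR adjusted p = 0.298) and Nrros, which anchors latent TGF-β on macrophages and microglia, at 0.34 ± 0.17 (edgeR adjusted p = 0.352). Among 7 genes for activation of latent TGF-β, the integrin subunit Itgb3 had 0.36 ± 0.13 (edgeR adjusted p = 0.203). These lists had 1 and 2 genes at an unadjusted p under 0.05, and edgeR, DESeq2 and limma-voom called 0 in both.

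Downstream of the ligands, the receptor gene Tgfbr2 had 0.29 ± 0.10 (edgeR adjusted p = 0.135), 1 of 4 receptor genes. The 8 TGF-β target genes were split into 4 positive and 4 negative values (median 0.03). Skil, a repressor of SMAD signalling, had -0.22 ± 0.08 (edgeR adjusted p = 0.177). edgeR and DESeq2 called 0 in both lists and limma-voom 1 in each, with 1 receptor and 2 target genes at an unadjusted p under 0.05. Of 7 tested BMP and GDF ligands 5 were negative (median -0.14), and of 8 tested elastin-degrading proteases 7 were positive (median 0.19), among them Cela1 at 0.83 ± 0.32 (edgeR adjusted p = 0.220). edgeR, DESeq2 and limma-voom called 0 in both, with 0 ligands and 1 protease at an unadjusted p under 0.05.

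For the members that passed a test, the genes with the most similar pattern were ranked among 12773 genes by Pearson's r of log2 CPM after the group and sex means were removed, over the same 25 libraries. For Ltbp2 these were Xylt1 (r = 0.72), a xylosyltransferase that starts glycosaminoglycan chains, Uap1 (0.70), which makes UDP-N-acetylglucosamine, Sbsn (0.67), Ankrd6 (0.66) and Tmem181a (0.65). Without the 2 libraries that stood apart, Xylt1 and Uap1 remained among the 5 nearest, and the 5 genes had r from 0.56 to 0.68. For Ltbp4 they were Slc38a10 (r = 0.87), the collagen VI genes Col6a2 (0.87) and Col6a1 (0.87), the collagen V gene Col5a1 (0.86) and Tln1 (0.85), a link between integrins and actin. Without the same 2 libraries 3 of the 5 remained, and the r of the 5 was 0.86 to 0.87. With the group and sex means left in, 3 of the 5 genes for Ltbp2 remained (r of the 5 from 0.40 to 0.82) and 0 of the 5 for Ltbp4 (0.38 to 0.76). These r values describe the libraries and share their depth and scaling.

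Some members overlap other genes, and the strand of the counting is not given in the sources used here. The antisense gene D030025P21Rik, which overlaps Ltbp2 by 764 bases, had 74 reads in all 25 libraries together, beside 12718 for Ltbp2. Gm9913, which overlaps Fbn1 by 2793 bases, had 0.784% of the reads of Fbn1. Mapk7, which overlaps Mfap4 by 89 bases, is an expressed gene with 91.7% of the reads of Mfap4, so reads in the shared bases are uncertain. Its running value was 0.08 on the log2 scale (edgeR adjusted p = 0.831).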

How the data were processed

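The build was GRCm38 (mm10), and the tools listed are RSEM 1.3.3, STAR 2.7.8a, cutadapt 2.3 and FastQC 0.11.8, per the submitters' processing notes. The annotation release and strand setting are not given in the sources used here. The authors deposited RSEM expected counts per gene, all of them whole numbers, and, in a second table, FPKM values. Counts were fitted with edgeR 4.0.16 (R 4.3.3): 4 reporter entries were set aside, genes were filtered by filterByExpr, libraries scaled by TMM, and the 4 group means with a sex term fitted by quasi-likelihood. Tests were two-sided and adjusted by Benjamini-Hochberg over all genes tested. CPM are TMM-scaled, except that eGFP and the summed levels of the marker lists are without TMM. Alternatives were RLE scaling, 2 other filters, DESeq2 1.42.0, limma 3.58.1 (voom with quality weights, and log2 FPKM with 1 or 0.1 added), covariates, a replicate block, subsets, and each library left out. The edgeR fit was tested on simulated data. The labels number the samples of a group but do not state separate animals, so p-values measure the spread between these samples. The members, the gene lists and the alternatives were chosen with earlier results of these data known. The text names all members, called genes of each list (or up to 2 with the smallest p), and the 5 genes most like each called member; some genes under this rule are not reported here. Positions come from GENCODE M21 on GRCm38.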

Additional observations from a re-analysis of the deposited data

Results flagged for a closer look

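Of 40 combinations of member and group, 2 held a library far from the others of its group by Dixon's criterion at 95%, which chance gives in about 1 in 20. Eln in WT cage female replicate 1 stood at 84.4 CPM, against 41.6 CPM in the next library of that group. This library also had a low muscle share (1.69% of counts) and the highest total, and it was the highest of its group for 7 of the 10 members. Mfap4 in WT running female replicate 1 stood at 21.2 CPM, against 10.2 CPM in the next, and that library was the highest of its group for 6 of the 10 members. The cause of either value was not tested.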

How the results depend on the processing

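The directions and calls of Ltbp2 (running) and Ltbp4 (sex) under the alternatives are given with their results. Depth limits Fbn2 most (52 to 379 reads per library). Groups of 6 or 7 leave standard errors of 0.12 to 0.31 on the log2 scale for a genotype difference at 1 activity. Differences of that size were not detectable, and larger ones also went uncalled, such as Eln in runners (0.86 ± 0.29, edgeR adjusted p = 0.387). Replicate numbers did not pair the samples: deviations of same-numbered libraries of different groups correlated at -0.014 on average (78 pairs, -0.29 to 0.26), and 5 of 25 libraries were closest to their own number. With the replicate block, genes called were 0 for genotype (mean of both activities, 1 without the block), 3 for running in cKO, 158 for running (mean of both genotypes) and 77 for sex, and members called were 0 for running in WT. The cause of the changes below was not tested, apart from the smaller numbers of libraries in subsets.

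With RLE scaling, the stricter filter and no sex term, no count of calls moved by over 1.5 times and no listed member reversed. In the order genotype mean, running in WT, running in cKO, running mean and sex, DESeq2 called 2, 161, 215, 632 and 251 genes and limma-voom 0, 90, 384, 912 and 442, with 2 and 3 members called for the running mean, and 3 members for sex in limma-voom. Without the filter on low counts, 4 genes were called for genotype at cage activity, 282 in runners, 91 for the mean, 197 for running in WT, 574 in cKO, 715 for the mean, 65 for the interaction and 445 for sex, with 1 member called for genotype in runners, 2 for running in cKO, 2 for the running mean and 3 for sex. With log2(FPKM + 1), 1 gene was called for genotype in runners, 0 for the genotype mean, 5 for running in cKO, 155 for the running mean and 41 for sex. With log2(FPKM + 0.1), 0 were called for the genotype mean, 14 for running in WT, 3 in cKO, 147 for the running mean and 46 for sex. Both FPKM fits called 0 members for running in WT, for the running mean and for sex. Genes called for the running mean were 117 higher and 156 lower by the edgeR test of the counts, against 110 and 45 with log2(FPKM + 1) and 104 and 43 with log2(FPKM + 0.1). The muscle covariate gave 0 genes for the genotype mean, 278 for running in WT, 20 in cKO, 446 for the mean and 243 for sex. The eGFP covariate gave 0 genes for the genotype mean, 16 for running in WT, 0 in cKO and 11 for the mean, and 0 members for the mean. The mitochondrial rRNA covariate gave 5 genes for running in cKO and 61 for the mean, with 0 members for running in WT or the mean. The library project as a covariate gave 0 genes for the genotype mean.

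Without the 2 libraries of the less common project, both at cage activity, 12, 3 and 127 genes were called in the WT, cKO and mean running comparisons. Without the 2 libraries whose reporter counts go against their label, 2 genes were called for genotype in runners, 2 for its mean, and 10, 4 and 135 for running. Without the 2 that stood apart, 0 were called for the genotype mean, 6 for running in WT and 16 in cKO. In each of these 3 subsets 0 members were called for running in WT. Females alone gave 0 genes for the genotype mean and 1, 0 and 8 for running (WT, cKO, mean). Males alone gave 0, 3, 30 and 102 for the same. Either sex alone called 0 members for running in WT or the mean. Without the libraries with eGFP, which left 0 cKO runners, 15 genes were called for running in WT, 29 genes and 0 members for sex, and the comparisons that need cKO runners could not be fitted.

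Values that changed sign were, in females alone, 0.11 for Mfap4 and 0.0019 for Ltbp2 (genotype at cage activity and in runners), 0.13 for Mfap4 (genotype mean), -0.15 for Mfap4 (running in cKO), and -0.25 for Eln and -0.0060 for Fbln5 (running mean). Mfap4 with running in cKO was -0.054 with the project covariate, -0.032 in limma-voom, -0.020 with the mitochondrial rRNA covariate, -0.13 with the muscle covariate and -0.064 without the less common project. In the running mean, Ltbp1 was 0.0065 in limma-voom, 0.13 and 0.12 on the FPKM scale with 0.1 and 1 added and 0.045 in males alone, and Fbn2 was 0.045 with 1 added to FPKM.

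With each library left out, genes called were 0 to 2 for genotype in runners and for its mean, 11 (without WT running male replicate 2) to 39 (without cKO running male replicate 2) for running in WT, 3 (without cKO cage female replicate 1) to 60 (without WT cage female replicate 1) in cKO, and 127 (without WT running male replicate 2) to 568 (without WT cage female replicate 1) for the mean. Members called were 0 to 1 for running in WT, 1 to 2 for the mean and 1 to 2 for sex (2 without WT running female replicate 3). Mfap4 ranged from -0.11 to 0.10 for the genotype mean and from -0.10 to 0.14 for running in cKO, and Ltbp1 from -0.087 to 0.019 for the running mean.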
